A study of Mus musculus with 6 samples.

Results

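The imprinted genes described here are 10 of the 24516 genes in the count table, followed through all 6 libraries: Peg10, Sgce, Peg3, Mest, Dlk1, Meg3, H19, Plagl1, Grb10 and Ndn. They were chosen by symbol, with the higher level of Peg10 in the siJunb libraries already known from these same counts, so the siJunb values of Peg10 are given as a description with no test. Of the 10, 7 had reads, 6 had enough to be tested, and 3 (Peg3, Dlk1 and Meg3) had 0 counts in every library. The libraries are poly(A) RNA from mouse embryonic fibroblasts of the iMGT-Myh6-eGFP-MEF line, in which doxycycline turns on Mef2c, Gata4 and Tbx5, factors that push fibroblasts toward a cardiomyocyte state, and which carries an eGFP reporter of Myh6. Cells received a control siRNA (siControl), an siRNA to Junb, an AP-1 subunit (siJunb), or an siRNA to H1f0, the linker histone H1.0 (siH1f0), on day -1. All 3 groups then received 1 ug/mL doxycycline at day 0, so the controls carry the induced factors too, and no uninduced cells are compared here. Each group held 2 libraries that the labels call biological replicates. The sample labels place the harvest at day 1 and the series description at day 3 after a sort for GFP-positive cells, and the labels do not settle which applies.

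Genomic imprinting is the silencing of 1 parental copy of a gene by marks, mainly DNA methylation, that are laid down in the egg or sperm and kept in the cells of the offspring. Imprinted genes lie in clusters that share a control region, and neighbours in a cluster can be read from the same or from opposite parental copies. Peg10, Sgce, Peg3, Mest, Dlk1, Plagl1 and Ndn are known for expression from the paternal copy, Meg3 and H19 from the maternal copy, and Grb10 from the maternal copy in most tissues. Many of them are active in embryonic tissue, fibroblasts among it. The counts add both parental copies together, so no value below says which copy was read.

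Regions upstream of 4 annotated gene starts are shown because the results turn on these genes. Grb10 had the highest level per length among the members, and both siJunb libraries of Plagl1 lay below those of siControl. Meg3 and Peg3 had no reads. The letters are the RefSeq sequence of GRCm38.p6, 5′ to 3′ on the gene's strand, with every CG in capitals, since CG is the dinucleotide that carries the methylation of imprints. The Grb10 stretch is chr11:12037429-12037670 on the minus strand, Plagl1 is chr10:13090582-13090831 on the plus strand, Meg3 is chr12:109540746-109540995 on the plus strand, and Peg3 is chr7:6730463-6730669 on the minus strand.
Grb10: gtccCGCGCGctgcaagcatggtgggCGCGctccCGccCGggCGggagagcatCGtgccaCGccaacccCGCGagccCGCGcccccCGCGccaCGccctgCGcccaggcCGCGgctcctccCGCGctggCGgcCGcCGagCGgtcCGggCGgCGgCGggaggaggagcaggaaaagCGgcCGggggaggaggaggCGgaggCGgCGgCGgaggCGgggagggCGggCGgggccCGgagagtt
Plagl1: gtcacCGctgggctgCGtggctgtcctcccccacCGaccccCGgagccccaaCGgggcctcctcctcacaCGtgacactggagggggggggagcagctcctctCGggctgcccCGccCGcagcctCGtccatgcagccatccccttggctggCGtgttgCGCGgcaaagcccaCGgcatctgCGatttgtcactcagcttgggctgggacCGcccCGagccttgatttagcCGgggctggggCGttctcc
Meg3: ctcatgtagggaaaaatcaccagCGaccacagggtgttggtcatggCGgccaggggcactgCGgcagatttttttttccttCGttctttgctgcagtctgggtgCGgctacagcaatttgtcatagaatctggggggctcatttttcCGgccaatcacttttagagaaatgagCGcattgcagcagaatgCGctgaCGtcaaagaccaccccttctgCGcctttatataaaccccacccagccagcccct
Peg3: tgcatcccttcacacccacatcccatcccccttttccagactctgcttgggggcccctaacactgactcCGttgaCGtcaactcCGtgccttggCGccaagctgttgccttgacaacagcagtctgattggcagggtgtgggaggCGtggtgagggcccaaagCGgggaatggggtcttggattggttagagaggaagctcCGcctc
These stretches hold 40 CG in 242 bases for Grb10, 19 in 250 for Plagl1, 10 in 250 for Meg3 and 7 in 207 for Peg3. Over the full window of 300 bases (250 before the start and 50 after it) Grb10 has 45 CG and 98.1% of the 32851 RefSeq promoter windows have fewer, Plagl1 has 26 (83.1%), and Meg3 and Peg3 have 13 each (62.1%). A second annotated start of Grb10 has 9 (54.2%) and one of Meg3 has 1 (5.43%). Ndn, which was read, has 11 (58.6%), Mest has 8 to 17 over its windows, and Dlk1, with no reads, has 9, so the CG counts do not separate members that were read from those that were not. The median was 7 CG over all windows and 20 over the 12986 windows of tested genes. The AP-1 heptamer TGANTCA, searched on both strands, was in 0 of the 11 windows of the 7 members with an entry, against 7.81% of all windows and 5.24% of those of tested genes. Peg10, Sgce and H19 had no entry. Only this heptamer was searched, so sites of another form were not counted. A match or its absence describes the letters of a window only. DNA methylation was not measured in these libraries.

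Library totals ran from 48690447 to 85979630 counts. The siControl libraries differed from each other more than the replicates of the other groups (chi-square per degree of freedom 74.6, against 3.80 in siJunb and 3.85 in siH1f0), so results that use siControl are given without either of its libraries where that changes them. The siRNA targets went with their labels: Junb was at 10.5 and 8.73 CPM (the usual scaling of a count to its library total) in siJunb against 35.6 and 39.5 in siControl, and H1f0 was at 52.3 and 55.3 CPM in siH1f0 against 741 and 808. Of 10 fibroblast markers 7 were at 1 CPM or more, among them Col1a1 and Vim, and the sum of the 10 ran from 11302 to 13115 CPM in siControl, 11023 to 11095 in siJunb and 12951 to 13430 in siH1f0. Thy1 and Lum, which mark many fibroblasts, had 1 and 2 counts over all 6 libraries. The 4 trophoblast markers were at 0, and the sums of 4 leukocyte, endothelial, epithelial, adipocyte, skeletal muscle, neuronal or pluripotency markers did not exceed 3.38 CPM in any library. In bulk samples, fewer cells of a type and less RNA per cell cannot be told apart.

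Peg10 and Sgce are neighbours on mouse chromosome 6 that point away from each other, with 101 bases between their annotated gene spans. Peg10 (gene 170676, 4747306 to 4760517) is a gene derived from a retrotransposon and needed for the placenta, and Sgce (gene 20392, 4674350 to 4747204) encodes epsilon-sarcoglycan, a membrane protein related to the dystrophin-associated sarcoglycans. Both are protein-coding.

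In siControl Peg10 was at 77.4 and 94.3 CPM, against 205 and 201 in the siJunb libraries and 94.4 and 93.9 in those of siH1f0. Both siJunb libraries stood above the other 4 with no overlap, and the siH1f0 libraries lay at the upper siControl value. The means were 85.8 ± 11.97, 203 ± 2.46 and 94.1 ± 0.365 CPM (SD, n = 2 each). The fitted log2 difference of siJunb from siControl was 1.28 ± 0.09 (SE), a 2.43-fold higher level, and it was 1.13 without siControl 1 and 1.43 without siControl 2. The direct difference of siH1f0 from siJunb was -1.16 ± 0.09. The contrast of siH1f0 with siControl shares its siControl libraries with the contrast that led to the choice of Peg10. In it Peg10 differed by 0.12 ± 0.09 (edgeR quasi-likelihood test, Benjamini-Hochberg adjusted p = 0.456). That difference was -0.03 without siControl 1 and 0.27 without siControl 2, so it turned on which siControl library was kept. With 1 siControl library left, the spread within siControl is not measured, so no p is given for these 2 values.

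Sgce was at 122.2 and 122.4 CPM in siControl, 130.1 and 136 in siJunb, and 125 and 126 in siH1f0. The groups did not overlap, but all 6 libraries lay between 122 and 136 CPM, a highest-to-lowest ratio of 1.11, where that of Peg10 was 2.65. Sgce differed by 0.16 ± 0.05 on the log2 scale in siJunb against siControl (edgeR adjusted p = 0.056), by 0.02 ± 0.05 in siH1f0 against siControl (0.815) and by -0.13 ± 0.05 in siH1f0 against siJunb (0.0715). None passed the threshold of 0.05 on all 6 libraries. The siJunb difference was 0.14 without siControl 1, 0.16 without siControl 2, 0.19 without siJunb 1 and 0.13 without siJunb 2. The direct difference passed with only the 4 libraries compared (edgeR adjusted p = 0.000907), and it was -0.13 without siControl 1 or siControl 2. It did not pass with library totals only (-0.08, edgeR adjusted p = 0.238), the replicate block (0.116) or DESeq2 (adjusted p = 0.0928). With a single siJunb or siH1f0 library left out it ran from -0.16 to -0.10.

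The log2 ratio of Sgce to Peg10 counts, taken within each library where depth cancels, was 0.66 and 0.38 in siControl, -0.66 and -0.57 in siJunb, and 0.41 and 0.42 in siH1f0. Sgce thus had more counts than Peg10 in the 4 siControl and siH1f0 libraries and fewer in both siJunb libraries. The group means were 0.52 ± 0.20, -0.61 ± 0.062 and 0.41 ± 0.0099 (SD, n = 2 each), so the ratio moved by -1.13 from siControl to siJunb. This shift holds the Peg10 value that led to its choice and carries no test. From siControl to siH1f0 the ratio moved by -0.10 (exact permutation test, two-sided p = 1, where 2 against 2 libraries cannot go below 0.333), and by 0.04 with siControl 1 left out. Per kilobase of the gene length in the table, Sgce had the higher level in every library, 65.2 to 72.5 CPM per kb against 11.6 to 30.8 for Peg10. That order rests on the length of 1875 bases the table gives for Sgce. Over the 10612 merged exon bases of the GRCm38 annotation Sgce was at 11.5 to 12.8 CPM per kb. Its mean was then below that of Peg10 in siControl (11.5 against 12.9), siJunb (12.5 against 30.5) and siH1f0 (11.8 against 14.1).

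**Figure D1:**
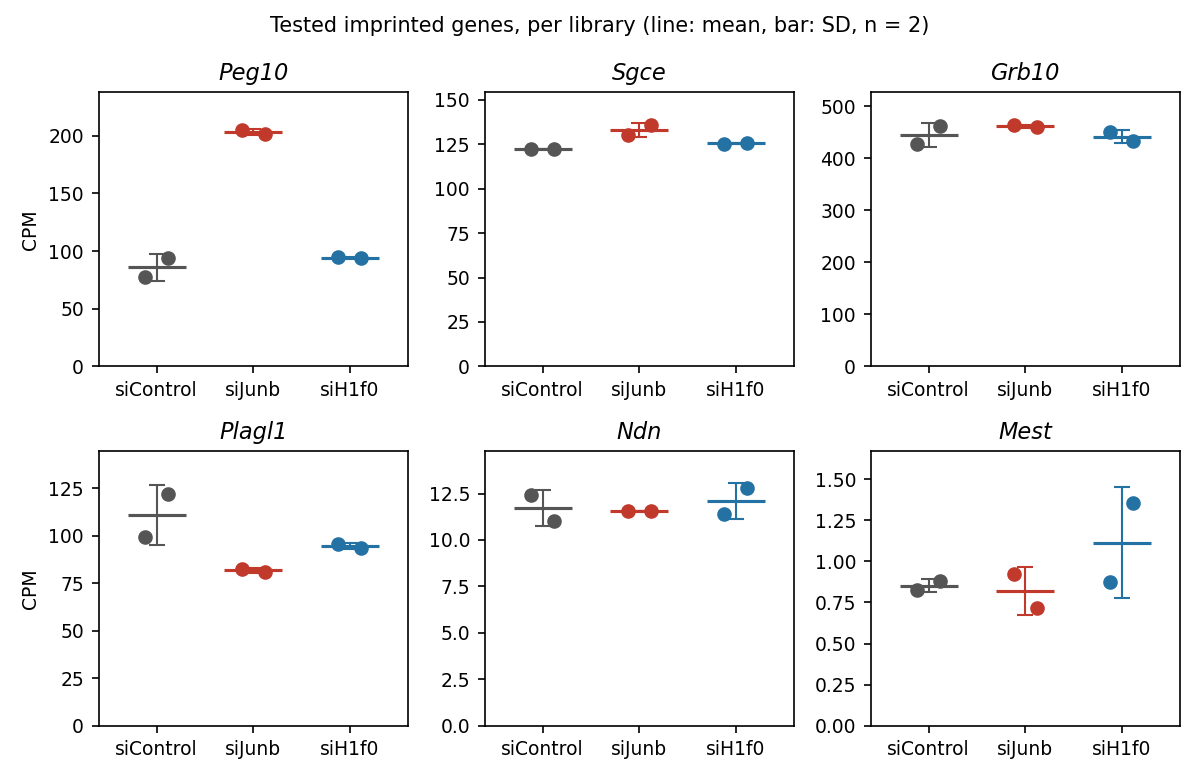
CPM of the 6 tested imprinted genes in each library (points), with the group mean (line) and SD (bar, n = 2) for siControl, siJunb and siH1f0, each y axis starting at 0. The siJunb points of Peg10 stand at 205 and 201 CPM above the other 4, those of Plagl1 lie below the siControl points, and Sgce, Grb10 and Ndn stay within narrow ranges.

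Of the 6 tested genes nearest to the pair along the chromosome, 0 were called higher in siJunb and 1, Pon2, was called lower. Casd1, a sialic acid O-acetyltransferase gene 31.0 kb beyond Sgce, lay between 53.4 and 55.7 CPM in all 6 libraries, with a log2 difference of 0.06 in siJunb against siControl (edgeR adjusted p = 0.498). Col1a2, a collagen I chain gene 132.8 kb beyond Sgce, was at 523 and 515 CPM in siJunb against 550 and 555 in siControl, which did not pass (-0.05, adjusted p = 0.424), and rose in siH1f0 to 717 and 699 CPM (0.34, adjusted p = 0.00292, lost without either siH1f0 library, at most 0.0864). Bet1, a vesicle transport gene 587.4 kb beyond Sgce, did not pass (0.10, adjusted p = 0.326). On the Peg10 side, the imprinted genes Ppp1r9a and Asb4 had 0 to 5 counts a library. Pon3, a paraoxonase gene 455.7 kb away and also imprinted, was at 62.1 and 62.4 CPM in siJunb and 66.5 and 66.8 in siH1f0 against 46.5 and 59.3 in siControl, and passed in neither comparison (0.27, adjusted p = 0.104, and 0.32, adjusted p = 0.101). Its neighbour Pon2 fell in siJunb from 62.5 and 57.9 to 48.4 and 50.4 CPM (-0.25, adjusted p = 0.0188) and in siH1f0 to 50.4 and 50.8 CPM (-0.27, adjusted p = 0.0281). Pdk4, a pyruvate dehydrogenase kinase gene 722.8 kb away, was at 8.30 and 9.06 CPM in siJunb against 7.20 and 7.29 in siControl with no overlap, and did not pass (0.29, adjusted p = 0.0621). Both Pon2 calls were lost with only the 4 libraries compared and when any 1 siJunb or siH1f0 library was left out (adjusted p at most 0.183 and 0.261).

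Dlk1 and Meg3 are the other neighbours compared, on chromosome 12 with 77659 bases between them. Dlk1 (gene 13386, 109452485 to 109463336) encodes a membrane protein related to the Notch ligands that holds back the maturation of preadipocytes, and Meg3 (gene 17263, 109540996 to 109571729) is a long noncoding RNA read from the opposite parental copy. Both had 0 counts in all 6 libraries, so no ratio between them could be formed in any group. The limit that 0 counts allow is 3 counts, which is 0.0349 to 0.0616 CPM in single libraries and 0.00770 CPM over the 389684462 counts of all 6. That limit and others below cover counting error only.

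Almost the whole cluster was without reads. From Dlk1 to Dio3, a span of 829 kb, the table holds 77 genes, 61 of them microRNA genes, whose short products poly(A) libraries do not capture. Of the 77, 74 had 0 counts in every library. The exceptions were Rtl1, a retrotransposon-derived gene, with 13 counts over all 6 libraries, and the noncoding RNA genes Rian and Mirg with 1 count each. The genes on either side were read: Begain was at 0.939 to 1.23 CPM, Wdr25 at 4.83 to 5.82 CPM and Ppp2r5c at 185 to 201 CPM. None of these 3 passed a test in siJunb or siH1f0 against siControl.

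**Figure D2:**
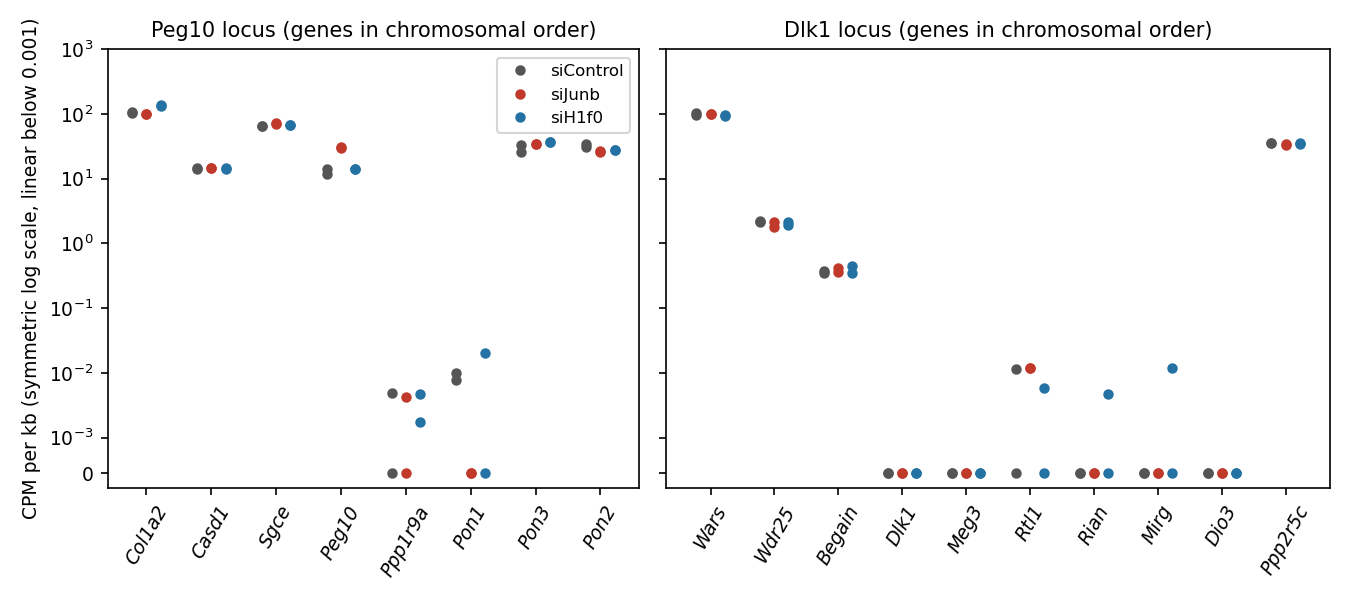
CPM per kb of genes in chromosomal order around Sgce and Peg10 (left) and around Dlk1 and Meg3 (right), 1 point per library coloured by group, on a symmetric log axis that is linear below 0.001. In the left panel Peg10 has its siJunb points above the others next to an even Sgce and Casd1, and in the right panel Dlk1, Meg3 and Dio3 sit at 0 in all 6 libraries between flanking genes that were read.

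Plagl1 (gene 22634, chromosome 10, 13090832 to 13131694) encodes a zinc-finger transcription factor known to slow cell growth and to act on other imprinted genes. It was at 99.5 and 122 CPM in siControl, 82.7 and 80.8 in siJunb, and 95.6 and 93.3 in siH1f0. The siJunb libraries were the lowest and the siControl libraries the highest, with no overlap between any of the groups. Plagl1 fell by 0.40 ± 0.09 on the log2 scale in siJunb against siControl (edgeR adjusted p = 0.0189). The choice of members used this contrast, so this p is given as a description. The fall was 0.55 without siControl 1 and 0.25 without siControl 2, and the call was lost without siJunb 1 or siJunb 2. The siH1f0 difference from siControl was -0.24 ± 0.09 (adjusted p = 0.148). It was -0.39 without siControl 1 and -0.09 without siControl 2. The 2 knockdowns differed from each other by 0.16 ± 0.09 (adjusted p = 0.233). That difference was 0.16 without siControl 1 or siControl 2, and it passed with only the 4 libraries compared (edgeR adjusted p = 0.000252). With no count filter it passed narrowly (0.0489). It did not pass with library totals only (edgeR adjusted p = 0.103), the replicate block (0.249) or DESeq2 (adjusted p = 0.231). With a single siJunb or siH1f0 library left out it ran from 0.14 to 0.18. The siControl libraries are in neither group compared and enter only the shared spread.

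Grb10 (gene 14783, chromosome 11, 11930499 to 12037428) encodes an adaptor that binds the insulin and IGF1 receptors and restrains growth. It was at 428 and 462 CPM in siControl, 464 and 459 in siJunb, and 450 and 432 in siH1f0. All 6 libraries fell within a highest-to-lowest ratio of 1.08, and only siJunb and siH1f0 did not overlap. The log2 differences were 0.09 ± 0.05 in siJunb against siControl (edgeR adjusted p = 0.292), -0.03 ± 0.05 in siH1f0 against siControl (0.816) and -0.12 ± 0.05 in siH1f0 against siJunb (0.152). The siJunb difference was 0.03 without siControl 1 and 0.15 without siControl 2, and that of siH1f0 was -0.09 and 0.03. The direct difference passed with only the 4 libraries compared (edgeR adjusted p = 0.000306). It did not pass with library totals only (-0.07, edgeR adjusted p = 0.387), the replicate block (0.216) or DESeq2 (adjusted p = 0.21). With a single siJunb or siH1f0 library left out it ran from -0.14 to -0.08. It was -0.12 without siControl 1 and -0.11 without siControl 2.

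Ndn (gene 17984, chromosome 7, 62348277 to 62349928) encodes necdin, a MAGE-family protein best known from neurons and from the Prader-Willi region. It was at 12.4 and 11.0 CPM in siControl, 11.58 and 11.58 in siJunb, and 11.4 and 12.8 in siH1f0. The groups overlapped, and the log2 differences were 0.02, 0.03 and 0.01, each with an SE of 0.09 (edgeR adjusted p = 0.922, 0.884 and 0.936). Its cluster was read in part. Of the 23 genes lying wholly between Snrpn and Peg12, 20 had 0 counts, and 13 of the 23 were microRNA genes. Ndn had 4618 counts over the 6 libraries, Peg12 3539 and Mkrn3 880. Snhg14, a neighbour 1898.1 kb from Ndn that is not among the 23, had 32 and 31 counts in siControl. It had 35 and 3 in siJunb and 37 and 21 in siH1f0. The 0 of Snrpn is uncertain, because 34.1% of its annotated exon bases are shared with other genes, Snurf among them, and reads on shared bases may go uncounted. In that annotation Snurf has 216 exon bases, but its deposited length is 1971 bases. The shared part in the annotation used for counting was thus not measured.

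Mest (gene 17294, chromosome 6, 30733506 to 30748466), an enzyme gene of the alpha/beta hydrolase fold known from embryonic mesoderm and growing fat, was read at a low level. It had 71 and 58 counts in siControl, 59 and 35 in siJunb, and 52 and 89 in siH1f0, or 0.719 to 1.35 CPM. The groups overlapped, and the log2 differences of 0.00 ± 0.29, 0.38 ± 0.27 and 0.38 ± 0.28 did not pass (edgeR adjusted p = 0.998, 0.451 and 0.360). The wide SE goes with the low counts. Of the annotated exon bases of Mest, 23.1% are shared with Copg2, which was at a mean of 69.2 CPM, so the counts of Mest are uncertain.

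H19 (gene 14955, chromosome 7, 142575530 to 142578146), a long noncoding RNA that is among the most abundant in the mouse embryo, had 0 and 2 counts in siControl, 2 and 0 in siJunb, and 10 and 4 in siH1f0. The siH1f0 libraries had the highest counts, but the gene was too low to be tested, and no fold is given. Igf2, which shares its control region, had 14 and 6 counts in siControl, 6 and 8 in siJunb, and 20 and 9 in siH1f0. The groups overlapped, and Igf2 did not pass in siH1f0 against siControl (edgeR adjusted p = 0.475). Peg3 (gene 18616, chromosome 7, 6703892 to 6730462), a zinc-finger gene, had 0 counts in every library, and so did all 5 genes of its cluster from Zim1 to Usp29.

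By the lengths in the table, the members could be put in order of level per kilobase. Grb10 had the highest (mean over the 6 libraries 87.1 CPM per kb, 83.0 to 89.9), followed by Sgce (67.7, 65.2 to 72.5), with no overlap between them. Peg10 (19.2, 11.6 to 30.8) and Plagl1 (18.2, 15.3 to 23.2) overlapped, and their order turned with the group: Peg10 was lower in siControl (12.9 against 21.1) and siH1f0 (14.1 against 18.0) and higher in siJunb (30.5 against 15.5). Ndn (7.15), Mest (0.335) and H19 (0.0212) followed. With merged exon bases as the length, Grb10 kept the highest mean (49.4) and Ndn (3.20), Mest (0.236) and H19 (0.0197) the lowest, but Sgce (11.96, from 67.7) moved behind Peg10 (19.2) and Plagl1 (12.2). Under that length Peg10 also stood above Plagl1 in siH1f0 (14.1 against 12.1). The 3 genes with no reads had company in the table, where 6803 of 24516 genes (27.7%) had 0 counts in every library.

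In siJunb against siControl 1 of the 6 tested members was called higher (Peg10) and 1 lower (Plagl1), where over all 13427 tested genes 8.63% were called higher and 7.82% lower at an adjusted p under 0.05. Because the choice of members used this contrast, nothing is read from the count. In siH1f0 against siControl 0 of 6 were called by edgeR and 0 by DESeq2, against 2.27% of all genes higher and 4.27% lower by edgeR. At an unadjusted edgeR p under 0.05 there was 1 of the 6 (Plagl1), against 3060 of all 13427 tested genes. In siH1f0 against siJunb 0 were called higher and 1 lower (Peg10), with 12.2% and 13.8% over all genes. That call rests on the siJunb values that led to the choice of Peg10, so nothing is read from this count either. The siControl libraries are shared by the first and second of these comparisons. The median log2 difference of the 6 members was 0.05, 0.03 and -0.05, and that of all tested genes was 0.00 in each.

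**Figure D3:**
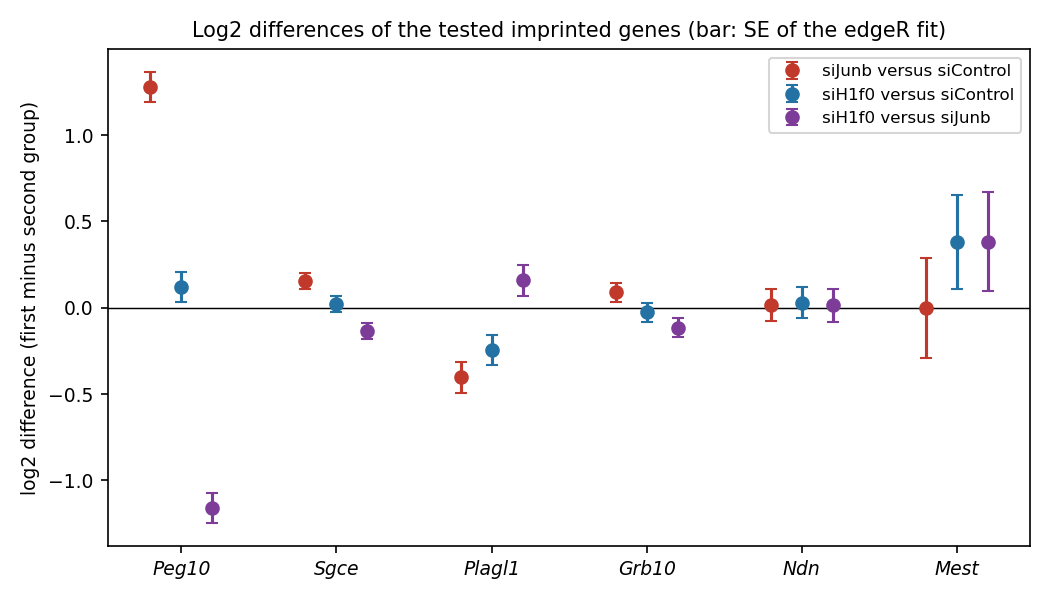
Log2 differences of the 6 tested imprinted genes in the 3 comparisons (points) with the SE of the edgeR fit (bars). Peg10 stands at 1.28 and -1.16 in the comparisons that hold siJunb, Plagl1 at -0.40 in siJunb against siControl, and the wide bars of Mest go with its low counts.

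A list of 56 other genes known for imprinting gave a wider view, though whether each is imprinted in these cells was not measured. It held 32 tested genes (57.1%, against 54.8% of the whole table) and 14 with 0 counts in every library (25.0%). In siJunb 1 of the 32 rose and 1 fell, where 8.63% and 7.82% of all tested genes did. Igf2r, the receptor that clears IGF2, was at 478 and 479 CPM in siJunb against 360 and 424 in siControl (0.32 ± 0.08, edgeR adjusted p = 0.0228). Inpp5f, a phosphoinositide phosphatase gene, was at 27.0 and 25.3 CPM against 32.1 and 33.2 (-0.28 ± 0.06, adjusted p = 0.0188). Neither call held with only the 4 libraries compared, nor when any 1 siJunb or siH1f0 library was left out (adjusted p at most 0.151 and 0.183). Without siControl 1 or siControl 2 the list had more calls in both directions. The share of all genes called was not counted in those fits, so nothing is read from the change.

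In siH1f0 0 of the 32 rose and 2 fell against siControl, where 2.27% and 4.27% of all tested genes did. H13, the gene of signal peptide peptidase, was at 105 and 112 CPM against 150 and 136 (-0.41 ± 0.06, edgeR adjusted p = 0.00454), and Cobl, an actin-nucleating protein gene 199.2 kb from Grb10, was at 16.4 and 17.1 CPM against 21.4 and 23.6 (-0.44 ± 0.07, adjusted p = 0.0115). Both calls were lost without either siH1f0 library (at most 0.109 and 0.158). With DESeq2 the counts were 1 and 2. Without siControl 1 or siControl 2 the list also had more calls. The share of all genes called was not counted in these fits or with DESeq2. Grb10 itself passed in neither knockdown on all 6 libraries, beside the fall of its neighbour Cobl.

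In siH1f0 against siJunb 1 of the 32 was higher (Inpp5f, 0.22, edgeR adjusted p = 0.0302) and 3 were lower, beside 12.2% and 13.8% of all tested genes. H13 was lower by 0.47 ± 0.06 (adjusted p = 0.000629) and kept its call in all 12 alternative fits. Cobl was lower (-0.36, adjusted p = 0.00877), as was Peg13, a noncoding RNA of a brain-imprinted cluster, at 9.26 and 7.67 CPM in siH1f0 against 11.7 and 12.3 in siJunb (-0.56 ± 0.11, adjusted p = 0.00651). These calls other than that of H13 were lost without at least 1 of the siJunb or siH1f0 libraries. The list had more calls without either siControl library and with only the 4 libraries compared, where the share over all genes was not counted. The median log2 difference of the 32 was 0.03, -0.04 and -0.04 in the 3 comparisons. By the parental copy each gene is known for, 13 of 24 paternally and 19 of 32 maternally expressed genes were tested: in siJunb against siControl 0 and 1 were higher and 1 and 0 were lower, and in siH1f0 against siControl 0 and 0 were higher and 0 and 2 were lower.

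**Figure D4:**
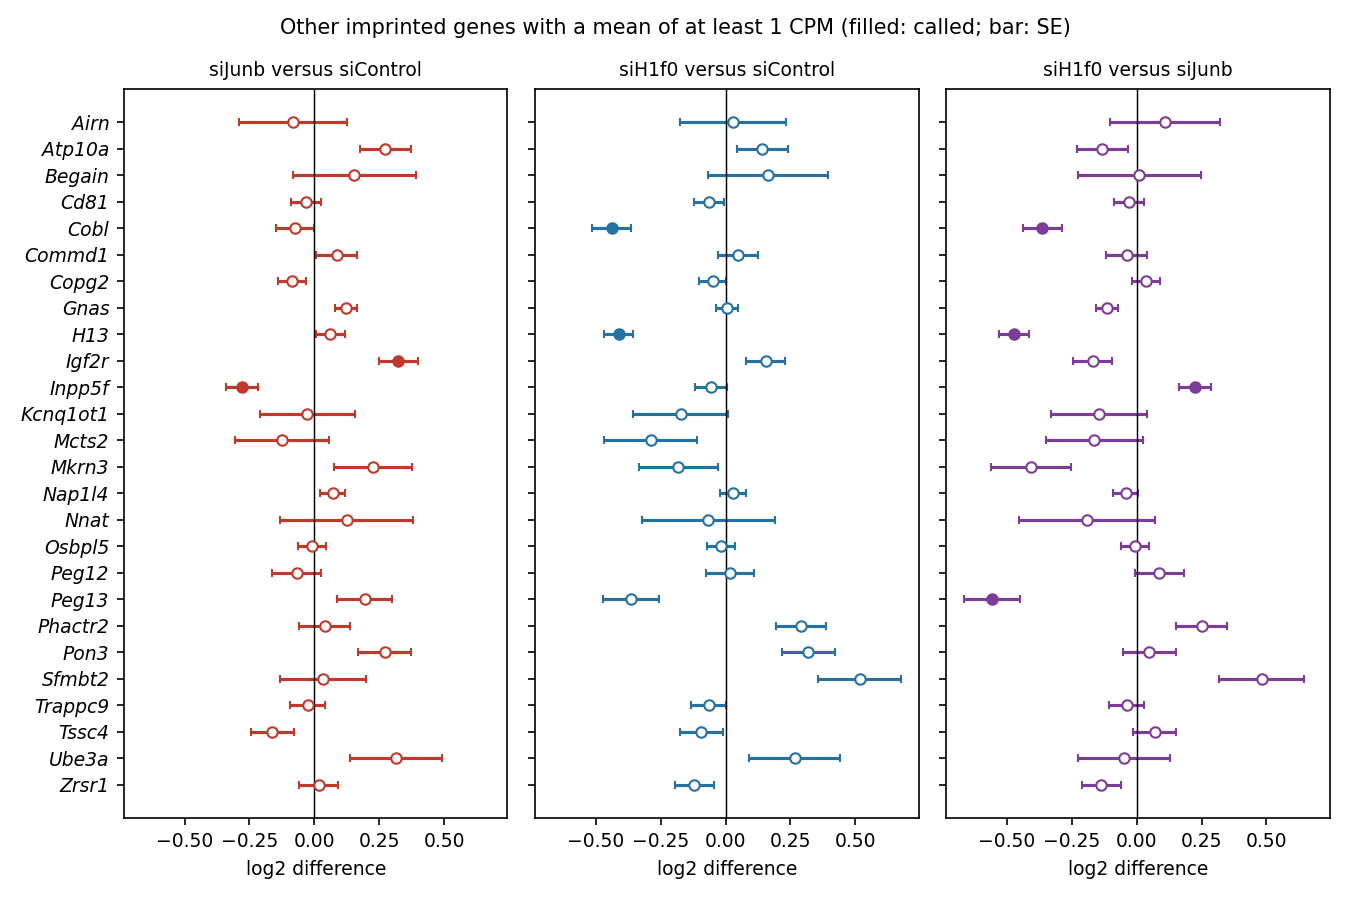
Log2 differences of the 26 other imprinted genes with a mean of at least 1 CPM in the 3 comparisons, with the SE of the edgeR fit (bars) and filled points for calls. Filled points are Igf2r and Inpp5f in siJunb against siControl, H13 and Cobl in siH1f0 against siControl, and Inpp5f, H13, Cobl and Peg13 in siH1f0 against siJunb.

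Of 18 genes known to set or keep imprints 17 were tested, and their median log2 difference was 0.03, 0.04 and 0.02 in the 3 comparisons. Zfp57 and Trim28, whose proteins hold methylation at imprints, and Dnmt1, the maintenance methyltransferase, passed in no comparison. Zfp57 came near the threshold in siJunb against siControl (38.0 and 38.7 CPM against 48.7 and 43.0, -0.22 ± 0.07, edgeR adjusted p = 0.0547). In siJunb against siControl 1 of 17 rose, the de novo methyltransferase gene Dnmt3b (6.71 and 7.97 CPM against 5.39 and 5.82, 0.42 ± 0.12, edgeR adjusted p = 0.0412), and 0 fell, where 8.63% of all tested genes rose and 7.82% fell. In siH1f0 1 rose against siControl, Uhrf1, the partner of Dnmt1 (419 and 416 CPM against 366 and 360, 0.19 ± 0.04, adjusted p = 0.0345), and 1 fell, Arid4a, known from the Prader-Willi imprint (47.8 and 47.7 CPM against 56.7 and 63.9, -0.35 ± 0.07, adjusted p = 0.0214), where 2.27% of all tested genes rose and 4.27% fell. These 3 calls were lost with only the 4 libraries compared and when any 1 siJunb or siH1f0 library was left out. Dnmt3b also lost its call with library totals only, and Uhrf1 with the replicate block. The number of calls in the list changed when either siControl library was left out. The share of all genes called was not counted in those fits, so nothing is read from the change. In siH1f0 against siJunb Uhrf1 (0.19, adjusted p = 0.0128) and the demethylase gene Tet1 (0.73, 0.0449) were higher, and Dnmt3b (-0.44, 0.0272) and Arid4a (-0.33, 0.00919) were lower, where 12.2% and 13.8% of all tested genes were. Each of these 4 lost its call without either siH1f0 library. The number of calls also changed without either siControl library and with only the 4 libraries compared, where the share over all genes was not counted.

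The 48 tested genes nearest to the members' loci, 3 on each side of 8 loci, served as their surroundings. Some of them, such as Cobl, Pon3 and Igf2, are also on the list of other imprinted genes, so the sets are not separate. In siJunb 3 of the 48 rose and 2 fell against siControl, beside 8.63% and 7.82% of all tested genes. Beside Plagl1, Stx11, a syntaxin gene 126.3 kb away, fell from 133 and 137 to 93.6 and 90.6 CPM (-0.52 ± 0.05, edgeR adjusted p = 0.000512), whereas Fuca2, a fucosidase gene 368.9 kb away on the other side, rose (0.39, adjusted p = 0.00186). The nearer Ltv1 and Sf3b5, at 46.9 and 81.6 kb, did not pass (-0.15 and -0.10, adjusted p = 0.0926 and 0.349). Beside H19, Ctsd, the cathepsin D gene 187.7 kb away, was at 1166 and 1139 CPM in siJunb and 792 and 810 in siH1f0 against 973 and 876 in siControl (0.35 and -0.22, adjusted p = 0.00366 and 0.0430). The calls of Stx11 and Fuca2 held in all 12 alternative fits, that of Ctsd in siJunb was lost without either siJunb library (at most 0.0662), and that in siH1f0 in 7 fits (at most 0.353 with single libraries left out). In siH1f0 2 of the 48 rose and 4 fell, beside 2.27% and 4.27% of all tested genes. Some neighbours lie far off, such as Egfr at 4714.8 kb from Grb10. Egfr was among those called higher in siJunb against siControl on all 6 libraries (0.50, edgeR adjusted p = 0.0245).

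Genes whose profile over the 6 libraries was most like that of Peg10 were ranked by Pearson's r of log2 CPM among 10168 genes with a mean of at least 5 CPM, as a description over 6 libraries that share their groups. The 5 at the top were Adam19 (r = 0.999), Vgll3 (0.997), Limch1 (0.997), Hoxb4 (0.997) and Eif5b (0.996). Adam19, a metalloprotease gene, was at 83.9 and 96.0 CPM in siControl, 188 and 183 in siJunb, and 100.3 and 101 in siH1f0. Eif5b, a translation initiation factor gene, shared the shape but spanned only 158 to 170 CPM, since r does not see the size of a difference. Sgce came at rank 454 (r = 0.909), Grb10 at 1587 (0.702), Ndn at 5847 (-0.315) and Plagl1 at 7978 (-0.741).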

How the data were processed

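Poly(A) RNA was sequenced from 6 libraries, 2 each for siControl, siJunb and siH1f0, grouped by their labels. Raw counts of reads for each gene symbol were deposited by the authors. HISAT2, Subread and featureCounts, with the build mm10, are named in the submitters' processing notes, with no versions. Annotation release, strand setting and handling of multiply mapped reads: not given in the sources used here. All 6 library columns were used. CPM are counts over library totals, and CPM per kb divide by the deposited length column. Positions were taken from the RefSeq gene table of GRCm38.p6 (23587 of 24516 symbols matched), and shared exon bases from the GRCm38 annotation.

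The edgeR 4.0.16 quasi-likelihood test (R 4.3.3, TMM, filterByExpr, 13427 genes) was run over the 6 libraries with 1 term, the group, leaving 3 residual degrees of freedom. Calls needed a Benjamini-Hochberg adjusted p under 0.05 over all tested genes. The method was tested on simulated data. The median count per tested gene was 1484 to 2682 per library. The alternatives were RLE size factors, library totals only, no count filter, DESeq2 1.42.0, only the 4 libraries compared, the replicate block and each library left out. Merged annotated exon bases as the gene length were added after seeing the data. A fit with 1 library left in a group takes that library's spread from the remaining groups.

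The members, the gene lists and the tests were chosen with earlier results of these data known. The rule names all 10 members, the called genes of each list (up to 5 a direction) and the 5 genes with a profile most like Peg10; other genes were named after their values were seen.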

Additional observations from a re-analysis of the deposited data

How the results depend on the processing

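Of the log2 differences of single members under all alternatives, 197 stayed on their side of the threshold, 17 moved past it and 2 lost it, the latter both Plagl1 in siJunb without a siJunb library. The count of called members in siJunb against siControl was 2. In siH1f0 against siControl it was 0, with 1 under no count filter. In siH1f0 against siJunb it was 1, with 2 under no count filter and 4 with only the 4 libraries compared. In each comparison the count also changed with single libraries left out. The share of all genes called was not counted in these alternatives, so nothing is read from the changes. The cause was not tested. The log2 ratio of Sgce to Peg10 moved by -0.10 in siH1f0 against siControl and by -0.244 to 0.0385 with single libraries left out, turning its sign to 0.0385 without siControl 1; in siJunb it stayed between -1.27 and -0.99. The replicate numbers do not pair the libraries (correlations of same-numbered deviations 0.048, -0.041 and 0.063), and with the replicate block the counts of called members were 2, 0 and 1. With merged exon bases as gene length, added after seeing the data, the mean CPM per kb of Sgce was 11.96 in place of 67.7. Depth limits Mest and H19, and 3 members have no reads.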
